A study of Homo sapiens with 10 samples.

Results

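Receptor tyrosine kinases are membrane proteins that bind an extracellular ligand, pair up and phosphorylate tyrosines on themselves and on adaptor proteins. The phosphorylated sites recruit GRB2, SHC, IRS and phospholipase C proteins and feed the RAS-ERK and PI3K-AKT pathways. In lung adenocarcinoma the family is known for EGFR, MET, ERBB2, RET, ROS1 and ALK, which can act as oncogenic drivers, and for AXL, which is studied in drug tolerance. The mRNA levels of 56 receptor tyrosine kinase genes of 21 families were examined, chosen by gene symbol and all found among the 28281 genes counted by RNA-seq.

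The 10 libraries came from A549 and H1944, 2 established lines of human lung adenocarcinoma, as wild-type cells (WT) or with a knockout (KO) of APEX1, the gene of the abasic-site DNA endonuclease APE1. A549 had 3 WT and 3 KO libraries and was grown in DMEM, and H1944 had 2 WT and 2 KO libraries and was grown in RPMI1640 with added sodium pyruvate, so that line and medium cannot be told apart. The series title names DNA G-quadruplexes, four-stranded structures of guanine-rich DNA, and no treatment was given beyond the knockout. The labels do not say whether a line's knockout was 1 clone or several, nor whether libraries came from separate cultures, so the p-values measure the spread between libraries, which may be technical. The A549 KO libraries, numbered 16, 65 and 66, carry no genotype in their column names and were assigned as the one A549 group left.

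Total counts ran from 18314224 to 30219850 per library, and levels are given as CPM, a gene's count scaled to the library's TMM-adjusted total. APEX1 was at 164 to 264 CPM in A549 WT and 58.4 to 109 CPM in A549 KO, and at 238 to 239.5 CPM in H1944 WT and 85.8 to 86.3 CPM in H1944 KO. A549 WT 1 and KO 65 stood apart from the other 4 A549 libraries: they had 230.9 and 270.4 CPM of the ribosomal RNA gene RNA28SN4, which had 0 counts in the other 4, and H1944 libraries had 127 to 325.5 CPM. Of the 21 members with a mean of at least 10 CPM in A549, 9 differed over 1.5-fold between these A549 library sets. In bulk RNA, fewer cells of a type and less RNA per cell cannot be told apart. Both lines had epithelial keratins, whereas of 7 lung epithelial markers NKX2-1, SFTPA1, SFTPB, SFTPC and SCGB1A1 averaged under 1 CPM in every group. The other 2 were NAPSA, at a mean of 1.09 and 1.34 CPM in A549 WT and KO and 8.92 and 0.848 CPM in H1944 WT and KO, and FOXJ1, at 1.11 and 3.12 CPM in A549 and 0.267 and 0.0339 CPM in H1944. KDR, an endothelial marker and a member, had 0 counts in all libraries.

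Of the 56 members, 29 passed the low-count filter in both lines, 8 in H1944 alone, 4 in A549 alone and 15 in neither. KDR and EPHA8 had 0 counts in all 10 libraries, and 17 members never exceeded 1 CPM in any library. The members tested in neither line were INSRR, PDGFRA, CSF1R, FLT3, FLT1, KDR, NTRK2, MUSK, TIE1, TEK, EPHA8, EPHB1, ROS1, ALK and LTK. Most of them are receptors of vascular, myeloid, neural or muscle cells. The fusion-driver genes ALK and ROS1 reached at most 0.233 and 0.868 CPM in any library, and RET reached 0.671 CPM.

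In H1944, most of the receptors tested differed between the KO and WT libraries, and more of them fell than rose. Since clones and cultures are not given in the labels, a difference between these cannot be told apart from the knockout. Of 37 members tested, 9 rose and 21 fell at an adjusted p under 0.05, and 7 did not pass. Among all 16626 genes tested, 33.2% rose and 33.9% fell, so 24.3% of the members rising was below that background and 56.8% falling was above it. At a change of at least 2-fold, 5 members (13.5%) rose against a background of 10.1%, and 16 (43.2%) fell against a background of 11.3%. The median log2 fold change of the 37 members was -0.43, and that of all genes tested was -0.006. Of the 37, 7 passed the filter through 1 genotype only (ERBB4, PDGFRB, KIT, EPHA1, EPHA3, EPHA7 and EPHB3), 6 of which fell, and a member that passes in this way is picked for its difference. All 6 are among the 16 that fell at least 2-fold. The 2-fold counts and the median were not computed without such members, so both rest in part on the filter. Among the 30 that passed through both genotypes, 9 rose, 15 fell and 6 did not pass, so 80% were called. Of all 14902 genes that passed through both, 4995 rose and 5022 fell, and 67.2% were called. In 1 fit of all 10 libraries, in which A549's wider spread is shared, 4 of 40 members tested rose and 11 fell. Of all 17677 genes tested there, 1177 rose and 1345 fell. In that fit EPHB2, EPHA10, DDR2, MERTK, MST1R, EPHA7, EGFR, EPHB4, MET, EPHB6, STYK1, IGF1R, ERBB2, INSR and LMTK3 no longer passed.

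**Figure D1:**
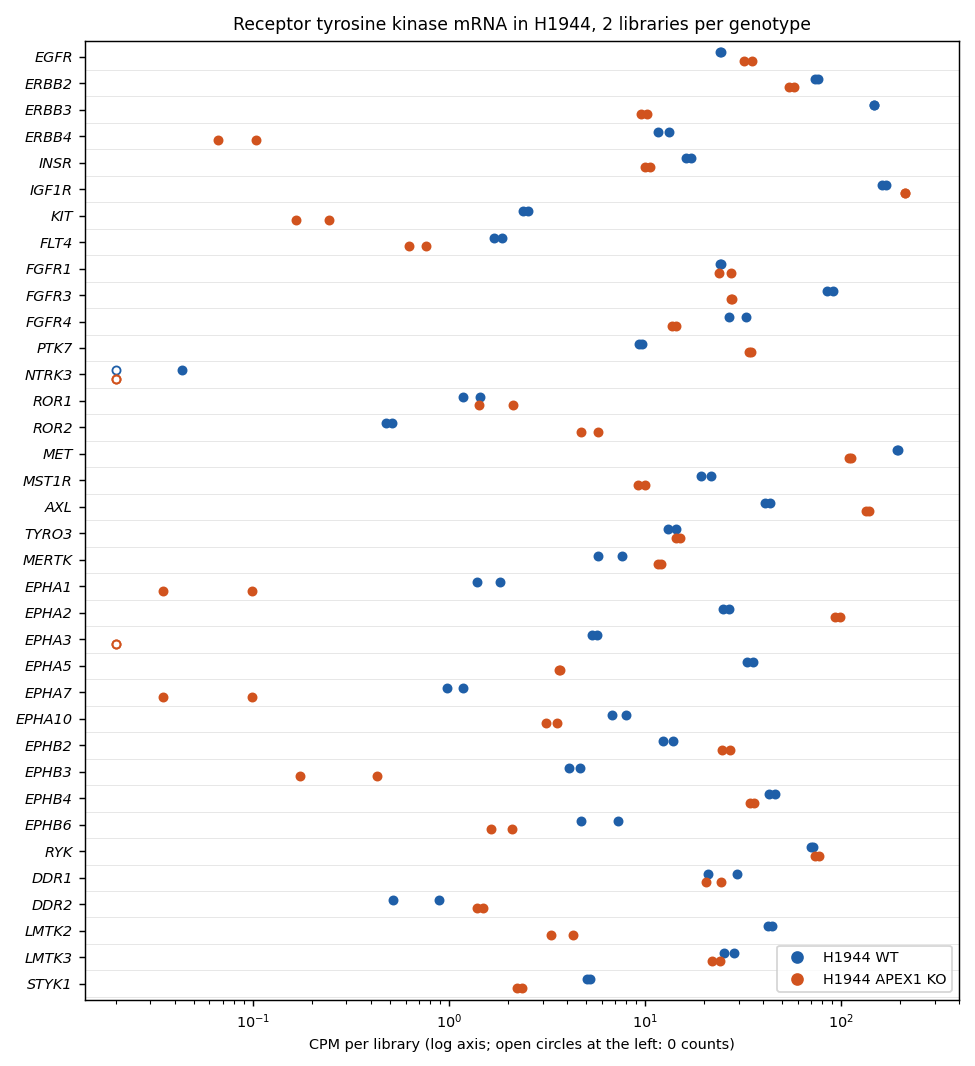
Level of receptors in each H1944 library (CPM, log axis), with WT libraries in blue and KO libraries in orange. Shown are members with a mean of at least 10 CPM in a group of either line, or called in H1944 with at least a 2-fold change and 1 CPM. Open circles at the left stand for 0 counts. ERBB3, LMTK2 and EPHA5 lie 9.39- to 14.9-fold lower in KO, and AXL, EPHA2 and PTK7 lie 3.22- to 3.69-fold higher.

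In the ErbB family, which binds EGF-like ligands and neuregulins, the neuregulin receptors ERBB3 and ERBB4 fell steeply while EGFR rose a little. ERBB3 (chr12:56076799-56103505), a receptor with little kinase activity that signals through its partners, was at 146 CPM in both H1944 WT libraries and at 10.3 and 9.48 CPM in the KO libraries. It fell 14.9-fold (log2 fold change -3.90, approximate SE 0.057, adjusted p = 4.18e-23). ERBB4 (chr2:211375717-212538841), a neuregulin receptor with an active kinase, was at 11.7 and 13.2 CPM in WT and at 0.104 and 0.0661 CPM in KO, the KO values resting on 3 and 2 counts. The groups did not overlap for either gene, and the ERBB4 log2 fold change was -7.13 (SE 0.29, adjusted p = 2.8e-15). In H1944, 2 WT and 2 KO libraries can lie apart without a change, and the share of all genes that did so was not computed. Here and below, a lack of overlap in H1944 only describes the libraries. ERBB2, the ligandless partner of the other ErbB receptors, fell from 76.2 and 73.4 CPM to 57.7 and 53.9 CPM (log2 fold change -0.43, SE 0.051, adjusted p = 1.34e-07). EGFR, the EGF receptor, rose from 24.5 and 24.1 CPM to 31.9 and 35.0 CPM (log2 fold change 0.45, SE 0.075, adjusted p = 1.55e-05). Both changes were under 1.5-fold and neither gene's groups overlapped.

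The insulin receptor family split in direction. IGF1R, the receptor of insulin-like growth factors, rose from 162 and 168 CPM to 212 and 210.1 CPM (log2 fold change 0.35, SE 0.037, adjusted p = 3.64e-08). INSR, the insulin receptor, fell from 17.1 and 16.1 CPM to 9.96 and 10.6 CPM (log2 fold change -0.70, SE 0.11, adjusted p = 6.22e-06). WT and KO libraries did not overlap for either.

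Among the PDGF, KIT and VEGF receptors, only KIT and FLT4 of the 8 members had at least 1 CPM in an H1944 group, and both fell. KIT (chr4:54657918-54740715), the stem cell factor receptor, was at 2.39 and 2.52 CPM in WT and 0.243 and 0.165 CPM in KO (log2 fold change -3.57, SE 0.41, adjusted p = 1.13e-07). FLT4, a receptor of VEGF-C known from lymphatic endothelium, was at 1.69 and 1.87 CPM in WT and 0.764 and 0.628 CPM in KO (log2 fold change -1.36, SE 0.35, adjusted p = 0.00175). PDGFRB, a PDGF receptor, was between 0.174 and 0.496 CPM and did not pass (adjusted p = 0.912). The endothelial marker list, of which KDR and TEK are members, summed to 1.45 to 1.69 CPM in WT and 1.53 to 1.72 CPM in KO, and the part of other cell types in the FLT4 and KIT values was not tested.

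FGFR3 and FGFR4 fell, and FGFR1 did not pass. FGFR3 (chr4:1793293-1808872), an FGF receptor, was at 90.8 and 84.6 CPM in WT and 27.8 and 27.4 CPM in KO, a 3.20-fold drop (log2 fold change -1.68, SE 0.056, adjusted p = 7.84e-17). FGFR4, the receptor that pairs with beta-klotho to bind FGF19, was at 32.7 and 26.8 CPM in WT and 13.8 and 14.3 CPM in KO (log2 fold change -1.10, SE 0.094, adjusted p = 1.23e-09). For both, every KO library lay below every WT library. FGFR1, which binds FGF2 among others, was at 24.5 and 23.9 CPM in WT and 23.8 and 27.5 CPM in KO, where the groups overlapped (adjusted p = 0.449). FGFR2 had 3 counts in the WT libraries together and was not tested in H1944.

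Among the receptors tied to Wnt signalling, PTK7 and ROR2 rose and RYK and ROR1 did not pass. ROR2 (chr9:91563091-91950162), a WNT5A receptor, was at 0.477 and 0.513 CPM in WT and 5.76 and 4.73 CPM in KO, a 10.4-fold rise (log2 fold change 3.38, SE 0.28, adjusted p = 6.75e-10). PTK7, a Wnt co-receptor with an inactive kinase, was at 9.59 and 9.33 CPM in WT and 33.7 and 34.8 CPM in KO (log2 fold change 1.85, SE 0.087, adjusted p = 3.77e-14). Both lay higher in each KO library than in either WT library. RYK, another Wnt receptor without an active kinase, was at 70.3 and 71.3 CPM in WT and 73.4 and 76.7 CPM in KO (adjusted p = 0.158). ROR1 was at 1.17 and 1.45 CPM in WT and 2.12 and 1.42 CPM in KO (adjusted p = 0.255).

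Both HGF-family receptors fell. MET (chr7:116672390-116798386), the HGF receptor, was at 192 and 194 CPM in WT and 112 and 109.5 CPM in KO (log2 fold change -0.81, SE 0.037, adjusted p = 2.93e-14). MST1R, the receptor of macrophage-stimulating protein, was at 21.7 and 19.2 CPM in WT and 10.00 and 9.22 CPM in KO (log2 fold change -1.10, SE 0.11, adjusted p = 6.57e-09). KO and WT libraries did not overlap for either gene.

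The TAM receptors, which bind GAS6 and protein S, went the other way. AXL (chr19:41219203-41261766) was at 43.2 and 40.6 CPM in WT and 134 and 138 CPM in KO, a 3.22-fold rise (log2 fold change 1.69, SE 0.046, adjusted p = 2.84e-18). MERTK, known for the clearance of dying cells, was at 5.77 and 7.65 CPM in WT and 11.6 and 12.1 CPM in KO (log2 fold change 0.81, SE 0.14, adjusted p = 3.91e-05). In both, the KO libraries lay above the WT libraries. TYRO3 was at 14.3 and 13.1 CPM in WT and 15.1 and 14.4 CPM in KO and did not pass (adjusted p = 0.429).

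The EPH receptors, which bind membrane-tethered ephrins on neighbouring cells, mostly fell. Of 14 members 11 were tested, 2 rose (EPHA2 and EPHB2) and 8 fell, against 33.2% and 33.9% of all genes tested, and 4 of the 8 (EPHA1, EPHA3, EPHA7 and EPHB3) passed the filter through WT only. EPHA2 (chr1:16124337-16156087), a receptor of ephrin-A1, was at 26.6 and 24.9 CPM in WT and 98.2 and 93.4 CPM in KO, a 3.69-fold rise (log2 fold change 1.88, SE 0.056, adjusted p = 1.22e-17). EPHB2, a receptor of ephrin-B ligands, was at 13.8 and 12.3 CPM in WT and 27.2 and 24.8 CPM in KO (log2 fold change 0.98, SE 0.092, adjusted p = 4.64e-09). Each KO library was above each WT library for both.

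EPHA3 (chr3:89107524-89482134) was at 5.34 and 5.69 CPM in WT and had 0 counts in both KO libraries. Taken against a floor of 3 counts per library, it was at least 54.25-fold lower in KO (adjusted p = 4.41e-12). EPHA5 (chr4:65319563-65670495) was at 32.9 and 35.4 CPM in WT and 3.68 and 3.63 CPM in KO, a 9.39-fold drop (log2 fold change -3.23, SE 0.10, adjusted p = 4.77e-17). Its exons overlap an antisense transcript over 535 bases, and without a statement on strand the reads of the pair cannot be told apart. The same limit holds for shorter opposite-strand overlaps of MST1R (356 bases), EPHA4 (242), ERBB2 (194), EGFR (186), AXL (67), FGFR1 (53) and EPHB2 (34).

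EPHA1, EPHA7 and EPHB3 went from low levels to near 0. EPHA1 was at 1.39 and 1.82 CPM in WT and 0.0347 and 0.0991 CPM in KO (adjusted p = 6.59e-07). EPHA7 was at 1.17 and 0.979 CPM in WT and at 0.0347 and 0.0991 CPM in KO (adjusted p = 1.45e-05). EPHB3 was at 4.08 and 4.66 CPM in WT and at 0.174 and 0.430 CPM in KO (adjusted p = 3.19e-09). The fitted log2 fold changes were -4.48 (SE 0.58), -3.91 (SE 0.64) and -3.83 (SE 0.35) in that order, and no KO library reached any WT library.

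The remaining EPH receptors changed less. The kinase-inactive EPHA10 was at 6.77 and 7.97 CPM in WT and 3.12 and 3.57 CPM in KO (log2 fold change -1.15, SE 0.18, adjusted p = 8.23e-06). The kinase-inactive EPHB6 was at 7.29 and 4.71 CPM in WT and 1.63 and 2.08 CPM in KO (log2 fold change -1.70, SE 0.24, adjusted p = 2.03e-06). EPHB4, the ephrin-B2 receptor, was at 46.0 and 42.7 CPM in WT and 36.0 and 34.3 CPM in KO (log2 fold change -0.35, SE 0.064, adjusted p = 6.02e-05). WT and KO did not overlap for these 3 genes. EPHA6 was at 3.95 and 3.17 CPM in WT and 3.09 and 2.68 CPM in KO and did not pass (adjusted p = 0.219).

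The lemur-tail kinases and STYK1, which have no known ligand, all fell. LMTK2 (chr7:98106885-98209633), a membrane kinase of the endosomal system, was at 44.3 and 42.3 CPM in WT and 3.30 and 4.26 CPM in KO, an 11.5-fold drop (log2 fold change -3.52, SE 0.11, adjusted p = 1.21e-17). STYK1 was at 5.25 and 5.04 CPM in WT and 2.22 and 2.35 CPM in KO (log2 fold change -1.18, SE 0.21, adjusted p = 3.96e-05). LMTK3 was at 28.2 and 25.4 CPM in WT and 24.1 and 21.9 CPM in KO (log2 fold change -0.23, SE 0.082, adjusted p = 0.017). The WT and KO libraries did not overlap in any of them, but the LMTK3 call was lost without WT 1 (adjusted p = 0.153), without KO 2 (0.17) and with DESeq2 (0.0965).

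DDR2, a collagen receptor, was at 0.521 and 0.886 CPM in WT and 1.39 and 1.49 CPM in KO (log2 fold change 1.03, SE 0.38, adjusted p = 0.0214). Its call was lost without WT 1 (log2 fold change 0.68, adjusted p = 0.208), without KO 1 (adjusted p = 0.05 after rounding), without KO 2 (0.0816) and with DESeq2 (0.12). DDR1, the other collagen receptor, was at 29.6 and 20.8 CPM in WT and 24.4 and 20.4 CPM in KO, and the groups overlapped (adjusted p = 0.519). The H1944 libraries all had RNA28SN4 counts, like the A549 libraries with low DDR1 counts (below). Whether DDR1 reads were also lost in H1944 was not tested, which limits this result.

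Among 6 members listed as pseudokinases, ERBB3, EPHA10, EPHB6 and STYK1 fell, PTK7 rose and RYK did not pass. Of all members tested 56.8% fell and 24.3% rose, and of all genes tested 33.9% fell and 33.2% rose. With 6 genes, this does not set the pseudokinases apart from the other members.

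Markers of epithelial cells moved in the same H1944 libraries. CDH1, the epithelial cadherin, fell from a mean of 206.5 to 7.90 CPM (adjusted p = 6.71e-25), and EPCAM fell from 68.7 to 0.935 CPM (adjusted p = 2.44e-21). KRT19 fell from 1.35 to 0.0669 CPM, KRT8 rose from 5429 to 9609 CPM and KRT18 rose from 3948 to 7823 CPM. KRT7, at 5.68 and 6.51 CPM, did not pass (adjusted p = 0.327). The lung epithelial list of 7 genes summed to 7.88 to 10.98 CPM in WT and 0.826 to 1.08 CPM in KO, and its 1 tested gene, NAPSA, fell (log2 fold change -3.40, adjusted p = 2.47e-11). The fibroblast list of 8 genes summed to 13.7 to 15.6 CPM in WT and 12.2 to 14.3 CPM in KO, and of 5 tested 2 rose and 1 fell. The leukocyte list of 5 genes summed to 26.4 to 28.4 CPM in WT and 51.7 to 53.6 CPM in KO, with CD3E at 0 counts in all 4 libraries and PTPRC at 0 in KO. Only 1 leukocyte gene averaged at least 1 CPM in either genotype and only 1 was tested, which rose (log2 fold change 0.95). That sum therefore does not describe the list as a whole. The part of these marker genes in the receptor changes was not tested.

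Ligands, co-receptors and signalling proteins were read from lists of known pathway genes. Of 65 ligand genes 46 were tested in H1944, 20 rose and 16 fell, against 33.2% and 33.9% of all genes tested, and the median log2 fold change was 0.05. Among the ligands called, EPGN, FGF1, FGF7, PGF, PDGFB, FGF22 and EFNA2 passed the filter through 1 genotype only, so their entry was tied to their difference. Such genes were not counted for the lists. BDNF, the ligand of NTRK2, went from 1.302 and 1.353 CPM in WT to 41.0 and 36.6 CPM in KO, a 28.96-fold rise (log2 fold change 4.86, SE 0.13, adjusted p = 1.59e-18). NTRK2 itself had 0 counts in every H1944 library. GDF15, which signals through RET and GFRAL, rose 5.89-fold from 21.1 and 20.6 CPM to 127 and 120.4 CPM. PDGFA fell 4.21-fold from 137 and 133 CPM to 32.5 and 32.0 CPM, although its receptor PDGFRA had at most 0.140 CPM. EGF fell 2.75-fold from 61.1 and 64.1 CPM to 21.7 and 24.1 CPM. NRG4, an ERBB4 ligand, fell 3.21-fold from 41.3 and 40.6 CPM to 13.3 and 12.4 CPM. EFNA1, the EPHA2 ligand, fell 2.76-fold from 103 and 101 CPM to 36.8 and 37.5 CPM. The WT and KO libraries of these 6 genes did not overlap, and their adjusted p-values were at most 3.31e-14.

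Of 11 co-receptor genes 5 were tested, 1 rose and 3 fell, with a median log2 fold change of -0.48. KLB, the beta-klotho partner of FGFR4, fell from 2.86 and 2.56 CPM to 0.139 and 0.363 CPM (log2 fold change -3.41, SE 0.41, adjusted p = 2.04e-07). It passed the filter (cutoff 0.391 CPM) through WT only, so its entry in the test was tied to its fall. The semaphorin and VEGF co-receptor NRP2 fell 2.75-fold, the cytokine receptor subunit IL6ST fell 1.39-fold, the agrin co-receptor LRP4 rose 2.22-fold, and NRP1 did not pass (adjusted p = 0.454). Of 32 proximal signalling genes, all tested, 12 rose and 13 fell, with a median log2 fold change of -0.02, beside the same shares of all genes. IRS1, the docking protein of the insulin and IGF1 receptors, rose 3.97-fold and PLCG1 rose 2.26-fold. SRC fell 1.92-fold and the PI3-kinase subunit PIK3CB fell 1.74-fold, while its relative PIK3CD rose 1.83-fold and MAP2K2, a MEK gene, rose 1.497-fold.

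Genes known as outputs and feedback regulators of ERK signalling mostly rose. Of 18 tested, 14 rose and 3 fell, against 33.2% and 33.9% of all genes tested, and the median log2 fold change was 0.72 against -0.006. CCND1, cyclin D1, went from 131 and 129.6 CPM to 559 and 555 CPM (4.24-fold, adjusted p = 3.85e-22). PHLDA1 rose 4.94-fold from 30.3 and 27.8 CPM to 144 and 146 CPM, and the AP-1 subunit FOSL1 rose 3.30-fold from 14.8 and 14.3 CPM to 50.1 and 46.8 CPM. The ERK phosphatase DUSP6 rose 2.65-fold, ETV4 rose 2.62-fold and the phosphatase DUSP5 rose 1.62-fold. SPRY1, ETV1 and EGR1 were the 3 that fell, named after their values were seen. Of 24 tested genes that restrain or remove receptors, 13 rose and 2 fell, with a median log2 fold change of 0.18 (all genes tested: 33.2% rose, 33.9% fell, median -0.006). The phosphatase PTPN1 rose 2.62-fold, PTPRG 2.06-fold, PTPRJ 1.42-fold, the adaptor SH2B3 3.63-fold and SOCS2 5.51-fold. LRIG1, which promotes the turnover of ErbB receptors, fell 4.35-fold from 41.2 and 42.0 CPM to 8.96 and 10.3 CPM (adjusted p = 2.72e-15).

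**Figure D2:**
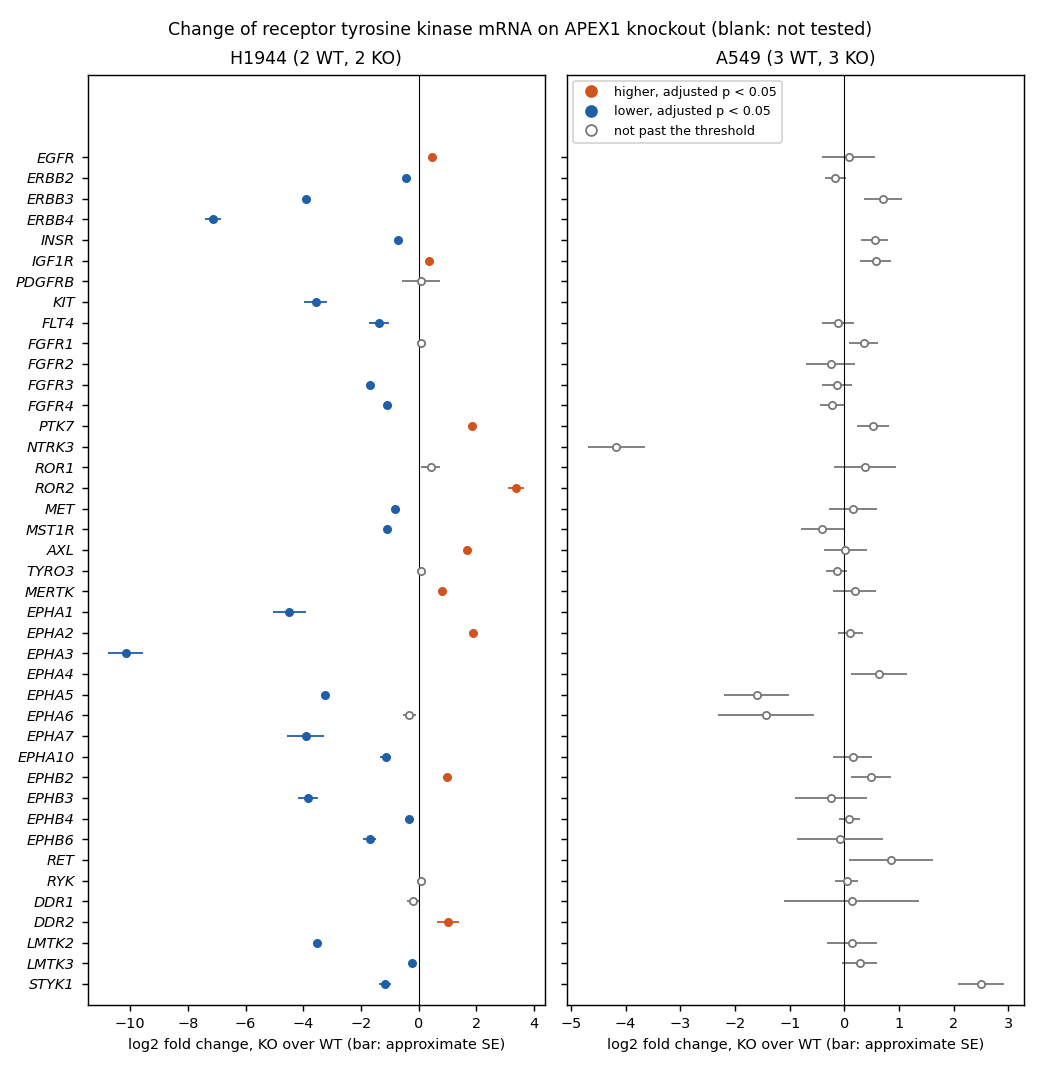
Log2 fold change of KO over WT for each tested receptor in H1944 (left) and A549 (right), with the approximate SE as bars and colour for an adjusted p under 0.05; the horizontal scales differ. In H1944 9 points are coloured higher and 21 lower, and in A549 none is coloured; the H1944 EPHA3 point is a fitted value of a gene with 0 counts in KO.

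The promoters of members that moved were read for the guanine-run pattern of G-quadruplexes, since the series title names these structures. The pattern searched was GGG, repeated to 4 runs with 1 to 7 bases of any kind (N) between runs, on either strand (CCC on the printed strand), in the 200 bases from 250 to 51 before the RefSeq transcription start on GRCh38.p14. It was present in 17.3% of all 27303 promoters of the same length and in 20 of the 50 members with a promoter entry. It was present in 3 of 9 members that rose in H1944 KO, in 8 of 17 that fell, in 3 of 6 that did not pass and in 6 of 18 that were not tested. ERBB3, INSRR, FLT4, FGFR1, EPHA10 and STYK1 were without an entry. Members that fell (ERBB4, KIT, LMTK2), that rose (IGF1R, ROR2, EPHA2) and the member with the lowest A549 log2 fold change (NTRK3) are shown so that windows with and without the pattern can be compared; capitals mark the bases of the pattern, and each runs 5′ to 3′ on the gene's strand.
ERBB4 (chr2:212538853-212539052, minus strand): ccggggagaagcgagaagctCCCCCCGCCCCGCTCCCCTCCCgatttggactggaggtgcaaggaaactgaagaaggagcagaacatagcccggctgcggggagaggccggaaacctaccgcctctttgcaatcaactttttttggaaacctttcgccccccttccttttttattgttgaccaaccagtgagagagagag
KIT (chr4:54657707-54657906, plus strand): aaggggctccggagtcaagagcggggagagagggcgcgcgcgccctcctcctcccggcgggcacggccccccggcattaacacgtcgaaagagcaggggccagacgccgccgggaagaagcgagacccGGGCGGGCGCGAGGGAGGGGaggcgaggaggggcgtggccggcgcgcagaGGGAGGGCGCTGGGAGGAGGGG
LMTK2 (chr7:98106612-98106811, plus strand): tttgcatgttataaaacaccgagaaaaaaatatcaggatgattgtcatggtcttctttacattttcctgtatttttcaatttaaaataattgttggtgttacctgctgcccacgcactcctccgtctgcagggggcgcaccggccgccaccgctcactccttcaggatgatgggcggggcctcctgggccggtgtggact
IGF1R (chr15:98648289-98648488, plus strand): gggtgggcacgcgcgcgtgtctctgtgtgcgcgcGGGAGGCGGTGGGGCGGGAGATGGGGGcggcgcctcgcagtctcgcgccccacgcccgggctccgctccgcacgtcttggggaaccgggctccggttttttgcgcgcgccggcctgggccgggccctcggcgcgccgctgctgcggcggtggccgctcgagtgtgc
ROR2 (chr9:91950279-91950478, minus strand): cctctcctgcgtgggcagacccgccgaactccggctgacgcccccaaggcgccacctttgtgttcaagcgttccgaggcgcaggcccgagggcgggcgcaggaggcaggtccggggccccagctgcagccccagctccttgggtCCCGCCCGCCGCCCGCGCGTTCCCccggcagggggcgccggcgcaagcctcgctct
EPHA2 (chr1:16156120-16156319, minus strand): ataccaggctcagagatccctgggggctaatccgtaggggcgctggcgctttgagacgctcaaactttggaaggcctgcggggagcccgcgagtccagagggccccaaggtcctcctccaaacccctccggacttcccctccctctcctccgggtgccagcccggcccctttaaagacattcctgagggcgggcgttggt
NTRK3 (chr15:88256790-88256989, minus strand): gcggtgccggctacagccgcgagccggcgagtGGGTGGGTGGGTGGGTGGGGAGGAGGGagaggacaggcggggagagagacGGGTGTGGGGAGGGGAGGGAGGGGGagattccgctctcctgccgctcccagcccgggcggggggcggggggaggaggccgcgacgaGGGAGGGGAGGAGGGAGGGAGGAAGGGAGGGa
ERBB4 and ROR2 held the pattern as runs of C, KIT, IGF1R and NTRK3 as runs of G, and LMTK2 and EPHA2 did not hold it. GC content of these windows ran from 49.5% in LMTK2 to 79% in IGF1R, and GC content was not matched between members and the other promoters. The pattern was thus present both above receptors that fell and above receptors that rose. Of 5 members whose promoters are known as G-quadruplex formers (KIT, PDGFRA, PDGFRB, KDR and RET), KIT and PDGFRB could be tested in H1944, where KIT fell and PDGFRB did not pass, and RET in A549, where it did not pass.

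In A549, no receptor passed the test on knockout. Of 33 members tested 0 rose and 0 fell with edgeR's quasi-likelihood test, against 0.00633% of 15806 genes tested called in either direction, and 3 members (9.09%) had an unadjusted p under 0.05, as did 5.66% of all genes tested. The biological coefficient of variation was 39.0% in A549 and 4.74% in H1944. CPM of the 3 KO and 3 WT libraries did not overlap for 4 of the 33 (12.1%), against 10.7% of all genes tested. INSR and STYK1 were higher in KO (background 5.6%) and NTRK3 and EPHA5 lower (background 5.08%). NTRK2, which was too low to be tested, had 0 counts in WT and at most 0.318 CPM in KO.

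NTRK3 (chr15:87859751-88256768), the receptor of neurotrophin 3, was at 53.1, 26.5 and 25.4 CPM in WT 1, 2 and 3 and at 1.002, 3.002 and 1.79 CPM in KO 16, 65 and 66. All KO libraries were far below all WT libraries, and the log2 fold change was -4.17 (SE 0.52, adjusted p = 0.369). It passed with DESeq2 (adjusted p = 8.14e-15), with a term for the library set (0.00849) and in 1 fit of all 10 libraries (0.0479). Within the set with RNA28SN4 counts the log2 ratio of KO 65 to WT 1 was -4.14, and within the other set KO 16 and KO 66 were at -4.67 and -3.84 against the WT mean. In H1944 NTRK3 had 1 count in the WT libraries together and 0 in KO.

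EPHA6, EPHB6, RET and STYK1 did not pass the A549 filter in both genotypes on their own, STYK1 through KO only, so its entry in the test was tied to its difference. STYK1 was at 0.286, 0.412 and 0.614 CPM in A549 WT and at 3.01, 2.37 and 1.88 CPM in KO 16, 65 and 66, with no overlap (log2 fold change 2.49, SE 0.42, adjusted p = 0.505). It passed with DESeq2 (2.47, adjusted p = 0.00256) and in 1 fit of all 10 libraries (0.0479), and the within-set log2 ratios were 2.96, 2.53 and 1.86 for KO 65, 16 and 66. EPHA5 was at 17.7, 5.63 and 5.62 CPM in WT and at 2.78, 1.96 and 4.70 CPM in KO (log2 fold change -1.61, SE 0.59, adjusted p = 0.819). INSR was at 10.6, 7.46 and 7.60 CPM in WT and at 12.0, 13.8 and 11.2 CPM in KO (log2 fold change 0.55, SE 0.24, adjusted p = 0.903). The KO libraries of these genes lay on 1 side of the WT libraries, for EPHA5 and INSR by a margin smaller than the gap between WT 1 and the other WT libraries.

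Other well-expressed receptors followed the library sets or varied among the KO libraries. EGFR was at 158, 72.8 and 72.7 CPM in WT and at 153, 109.5 and 53.9 CPM in KO 16, 65 and 66. MET was at 366, 174 and 173 CPM in WT and at 299.9, 343 and 142 CPM in KO. AXL was at 88.4, 163 and 163 CPM in WT and at 212, 99.4 and 93.0 CPM in KO. In each of the 3 genes WT 1 was apart from WT 2 and 3, and KO values overlapped those of WT (adjusted p from 0.995 to 0.997). LMTK2 showed the same split, at 86.6, 33.5 and 36.1 CPM in WT and 67.6, 66.7 and 36.2 CPM in KO. EPHB2, at 40.3, 29.3 and 30.2 CPM in WT, was at 44.8, 67.9 and 25.0 CPM in KO. EPHA2 was at 184, 224 and 222 CPM in WT and at 274, 223 and 165 CPM in KO, so the KO libraries spanned the WT range.

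IGF1R was at 133, 80.8 and 75.7 CPM in WT and at 146, 156 and 122 CPM in KO, and 1 KO library overlapped with WT (log2 fold change 0.57, SE 0.28, adjusted p = 0.939). ERBB3 was at 9.50, 7.05 and 6.89 CPM in WT and at 13.4, 16.7 and 7.56 CPM in KO (log2 fold change 0.71, SE 0.34, adjusted p = 0.937). ROR1 was at 26.9, 13.04 and 12.7 CPM in WT and at 33.7, 25.6 and 7.83 CPM in KO. KO 66 was the lowest of the KO libraries in all 3.

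ERBB2 was at 87.9, 122 and 126 CPM in WT and at 91.9, 87.9 and 112 CPM in KO. FGFR1, FGFR3 and FGFR4 were at 121 to 144, 28.6 to 31.3 and 46.1 to 76.1 CPM in WT and at 125 to 227, 17.6 to 34.6 and 53.0 to 58.4 CPM in KO. MST1R was at 24.6 to 39.6 CPM in WT and 14.8 to 38.4 CPM in KO. These groups overlapped, as did those of PTK7 (7.60 to 8.49 and 8.02 to 16.02 CPM), TYRO3 (17.7 to 18.6 and 13.3 to 18.6 CPM), EPHB4 (63.2 to 67.1 and 53.7 to 82.2 CPM), RYK (31.8 to 44.8 and 33.2 to 39.8 CPM) and LMTK3 (14.7 to 18.7 and 11.8 to 28.4 CPM). Below 10 CPM, EPHA7 was at 5.19 CPM in KO 66 and at most 0.286 CPM in the other 5 A549 libraries. Ligand, co-receptor, signalling, ERK-output and down-regulator genes also had 0 calls in A549, with 5, 0, 0, 2 and 1 genes at an unadjusted p under 0.05.

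**Figure D3:**
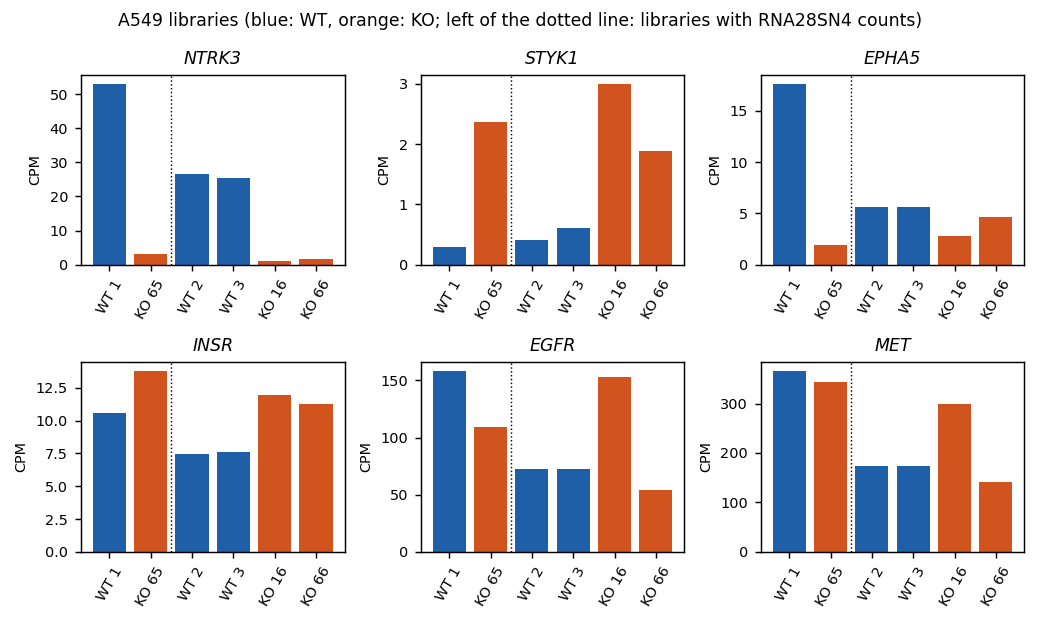
CPM in each A549 library for the 4 tested receptors whose KO and WT libraries did not overlap and for EGFR and MET, with WT in blue, KO in orange and the libraries with RNA28SN4 counts left of the dotted line. NTRK3 is low and STYK1 high in all 3 KO libraries, whereas EGFR and MET are high in WT 1.

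Whether a receptor's knockout change differed between the lines was tested as an interaction over all 10 libraries. Of 40 members tested, 9 differed (22.5%), against 6.95% of 17677 genes tested. In 7 the change in A549 was the higher one (background 4.1%) and in 2 the lower one (background 2.85%). ERBB3 stood first: it fell by 3.90 on the log2 scale in H1944 and was at 0.71 in A549, a difference of 4.58 (adjusted p = 0.000704). STYK1 fell in H1944 and was higher in every KO library of A549 (difference 3.63, adjusted p = 0.00328). LMTK2 differed by 3.65 (adjusted p = 0.00985) and EPHA2, which rose by 1.88 in H1944 and was at 0.11 in A549, by -1.81 (adjusted p = 0.00795). ERBB4, EPHA1 and ROR2, which were under 1 CPM in every A549 library, INSR and FGFR3 made up the rest, with adjusted p-values from 0.0272 to 0.0446. ERBB4 and EPHA1 passed the H1944 filter through WT only, so their entry in this test was tied to their difference. The share of members called was not computed without such genes. With 1 H1944 library left out, its group held only 1 library, and fewer members and fewer of all genes tested passed. With 1 A549 library left out, the counts of members with a higher and a lower change in A549 were 9 and 2 (without WT 1), 4 and 2 (without WT 2 or KO 16), 4 and 1 (without WT 3), 5 and 1 (without KO 65) and 6 and 2 (without KO 66). Of all genes tested, 450 to 1606 were then higher and 270 to 1286 lower, beside 725 and 503 with no library left out. With the 4 A549 libraries without RNA28SN4 counts alone, an alternative chosen after seeing the data, the counts were 11 and 2 for members. They were 1732 and 1662 for all genes tested.

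For the other members called in H1944, the difference did not pass. AXL differed by -1.72 (adjusted p = 0.101), PTK7 by -1.34 (0.0705), EPHA5 by 1.62 (0.253) and MET by 0.95 (0.387). These p-values do not show that the lines responded alike. Of the 23 members called in H1944 and tested in A549, 15 had a change of the same sign in A549 and 8 of the opposite sign, with none past the threshold in A549. The same share over all genes was not computed, so these counts do not show whether the lines responded alike. Among the lists, 4 ERK-output genes had a lower change in A549 (CCND1, PHLDA1, FOSL1 and ETV4) and 0 a higher one, of 18 tested, beside 2.85% lower and 4.1% higher among all genes. Beside the same background, ligands had 5 higher and 3 lower of 52 tested, among them BDNF, where the difference was -4.81 on the log2 scale (adjusted p = 0.000452).

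The lines differed in which receptors they expressed before knockout. Of 39 members tested between A549 WT and H1944 WT, 12 were higher in A549 and 13 lower, together 64.1% against 41.2% of 16857 genes tested (20% higher and 21.2% lower). Of the 39, 11 did not pass the filter in both lines on their own (NTRK3, EPHA4, FGFR2, EPHA3, ERBB4, KIT, EPHA1, STYK1, EPHA7, ROR2 and DDR2), 3 of them called higher and 5 lower, and their entry in the test can depend on their difference. Among the 28 that passed in both lines 9 were higher and 8 lower, 60.7% against 37.2% of all genes that passed in both. Both tables were joined by symbol, and line, medium and the making of the tables cannot be told apart in this comparison. NTRK3 was at 35.0 ± 15.7 CPM (SD, n = 3) in A549 and had 1 count in H1944, a ratio of 1551 with a 95% counting interval of 278.1 to 61290 (adjusted p = 0.0017). EPHA4, at 1.67 ± 0.790 CPM (SD, n = 3) in A549 and 0 counts in H1944, was at least 12.33-fold higher in A549 (adjusted p = 0.00974). FGFR2, at 2.21 ± 0.463 CPM (SD, n = 3) against 3 counts, was higher by a ratio of 32.67 (counting interval 10.95 to 160.3, adjusted p = 0.0101).

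Further receptors higher in A549 were above 1 CPM in both lines. EPHA2 was at 210.1 ± 22.2 CPM (SD, n = 3) in A549 and 25.8 ± 1.20 CPM (SD, n = 2) in H1944, 8.15-fold higher (adjusted p = 0.000845). FGFR1 was at 130.1 ± 11.9 and 24.2 ± 0.390 CPM, 5.37-fold higher (adjusted p = 0.00101). EGFR was at 101 ± 49.4 and 24.3 ± 0.291 CPM, 4.17-fold higher (adjusted p = 0.0193). ROR1 was 13.3-fold higher (17.5 ± 8.10 and 1.31 ± 0.194 CPM, adjusted p = 0.00503), and FLT4 was 3.48-fold higher (6.22 ± 0.338 and 1.78 ± 0.122 CPM, adjusted p = 0.0031). The EPHA2 and FGFR1 gaps exceed the SD of both lines, while EGFR varied within A549 WT, from 158 CPM in WT 1 to 72.7 CPM in WT 3.

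The receptors lower in A549 included EPHA3, ERBB4 and KIT, which also fell in H1944 KO. EPHA3 had 0 counts in all 6 A549 libraries and was at least 39.19-fold lower in A549 WT than in H1944 WT (adjusted p = 0.00295). ERBB4 had 3 counts in A549 WT, and H1944 was higher by a ratio of 264.7 (95% counting interval 90.1 to 1287, adjusted p = 0.00261). KIT had 1 count in A549 WT, and H1944 was higher by a ratio of 156.8 (27.56 to 6249, adjusted p = 0.00273). ERBB3 was 18.7-fold lower in A549, at 7.81 ± 1.46 CPM (SD, n = 3) against 146.4 ± 0.0214 CPM (SD, n = 2; adjusted p = 0.00072). STYK1 was 11.6-fold, EPHA1 12.3-fold, EPHB6 10.1-fold and EPHA6 3.71-fold lower (adjusted p from 0.00242 to 0.0259). Without H1944 WT 1 or WT 2 only 1 H1944 WT library was left, and fewer members and fewer of all genes tested passed. The counts of members higher and lower in A549 were 16 and 21 without A549 WT 1. Those of all genes tested were then 6733 and 7118, against 3373 and 3570 with all WT libraries, so the member counts rose along with them. A549 WT 1 was the only A549 WT library with RNA28SN4 counts, which both H1944 WT libraries had. Without it, library set and line cannot be told apart. Without H1944 WT 1 and likewise without WT 2, EGFR, AXL, EPHB2, ROR1, EPHA4, EPHA6, EPHB6, EPHA1, RYK, EPHB3, FGFR4, EPHB4, INSR and LMTK3 no longer passed. FLT4 was also lost without WT 1 and EPHA3 without WT 2, and all these adjusted p-values lay from 0.0501 to 0.231.

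**Figure D4:**
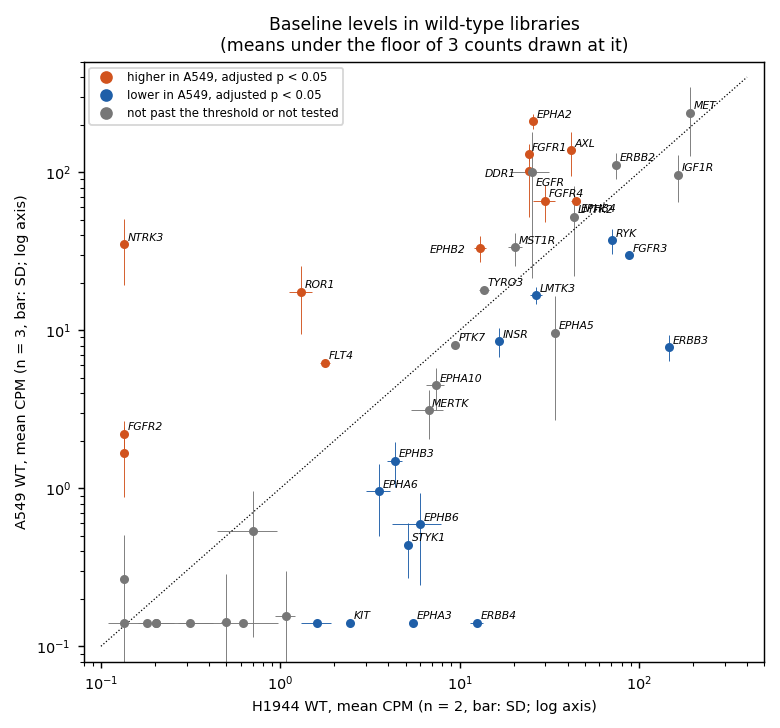
Mean CPM in A549 WT (vertical, 3 libraries) against H1944 WT (horizontal, 2 libraries) for each member on log axes, with SD bars, the dotted line of equal levels, and means under 3 counts drawn at that floor without bars. EPHA2 and FGFR1 lie above the line and ERBB3 below it.

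Levels of different receptors were compared per kilobase of exon. In A549 WT the order was EPHA2 (53.0 ± 5.59 CPM per kb, SD, n = 3), MET (35.5 ± 16.6), AXL (28.2 ± 8.77), FGFR4 (20.6 ± 5.30), FGFR1 (19.96 ± 1.83) and ERBB2 (19.7 ± 3.65). No neighbours in this order differed beyond their SD. In A549 KO the same 3 receptors led, EPHA2 at 55.7 ± 13.7, MET at 39.1 ± 15.8 and AXL at 27.5 ± 13.7 CPM per kb. In H1944 WT the order was MET (28.8 ± 0.221 CPM per kb, SD, n = 2), RYK (24.1 ± 0.252), ERBB3 (19.7 ± 0.00288), FGFR3 (19.7 ± 0.988), IGF1R (13.5 ± 0.364) and ERBB2 (13.2 ± 0.350), where ERBB3 and FGFR3, and IGF1R and ERBB2, did not differ beyond their spread. In H1944 KO the order was AXL (27.8 ± 0.677), RYK (25.5 ± 0.798), EPHA2 (24.2 ± 0.864), IGF1R (17.2 ± 0.0900), MET (16.6 ± 0.257) and ERBB2 (9.85 ± 0.465), where RYK and EPHA2 did not differ beyond their spread. AXL thus went from rank 9 to rank 1 and EPHA2 from rank 10 to rank 3 in H1944, while ERBB3 went from rank 3 to rank 19 and FGFR3 from rank 4 to rank 8.

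DDR1 (chr6:30876421-30900156) lies in the major histocompatibility region, which has alternate haplotype sequences in the genome build, and its counts followed the A549 library sets rather than genotype. It was at 9.07, 144 and 148 CPM in A549 WT 1, 2 and 3 and at 151, 9.19 and 154 CPM in KO 16, 65 and 66. The low values were those of the libraries with RNA28SN4 counts, and the H1944 libraries, all with RNA28SN4 counts, had 20.4 to 29.6 CPM. DDR1 was 16.3-fold higher in the larger A549 set. Within the sets the log2 ratios of KO to WT were 0.02 for KO 65, 0.05 for KO 16 and 0.08 for KO 66. Of 51 genes with at least 10 CPM within 1 Mb of DDR1, 42 were over 4-fold higher in the larger set, against 2.79% of 10382 located genes with that level. The DDR1 level is therefore not comparable between the sets or between A549 and H1944, where its baseline difference did not pass (adjusted p = 0.217). Whether reads of this region were lost in H1944 too was not tested, so the missing DDR1 call within H1944 is limited as well. IER3, in the ERK-output list, lies in the same region and was at 15.7 and 18.6 CPM in A549 WT 1 and KO 65 and at 116 to 134 CPM in the other 4.

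**Figure D5:**
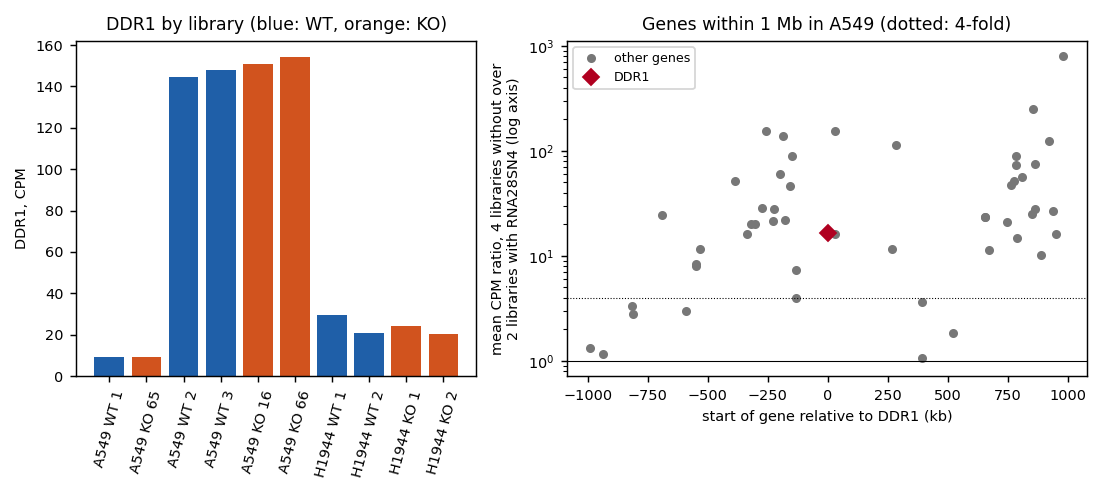
Left, DDR1 CPM in each library, WT in blue and KO in orange. Right, for genes with at least 10 CPM within 1 Mb of DDR1, the ratio of mean CPM in the 4 A549 libraries without RNA28SN4 counts to the 2 with them (log axis) by distance of the gene start; 42 of 51 genes lie above the dotted 4-fold line.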

How the data were processed

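Polyadenylated RNA from WT and APEX1 KO cells of A549 (3 and 3 libraries) and H1944 (2 and 2) was sequenced as read pairs, per the labels' protocols. The authors deposited whole-number raw read counts per gene, 1 table per line; trimming with Trim Galore 0.5.0, alignment with HISAT2 2.1.0 to hg38, counting with featureCounts 1.6.4 and DESeq2 are named in the submitters' processing notes. The annotation, the strand setting and the handling of reads with several matches are not given in the sources used here. The 56 members and the gene lists were chosen with earlier results of these data known.

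From the deposited counts, genes were filtered with filterByExpr (minimum count 10), scaled by TMM and fitted in R 4.3.3 with edgeR 4.0.16, whose quasi-likelihood test was run in its robust form, with Benjamini-Hochberg adjustment over all genes tested and a threshold of 0.05. SE is the absolute log2 fold change over the root of the F statistic. Tests covered KO against WT in each line, the difference of the KO changes over all 10 libraries, and WT against WT. DESeq2 1.42.0, other scaling, no filter, a library set term, leaving out each library and a replicate block were alternatives. The fits were checked on simulated counts. Equally numbered H1944 libraries did not deviate together (r = 0.0128 over genes), so the numbers do not pair them. Values per library are given for members with a mean of at least 10 CPM in a group, or called in H1944 with at least a 2-fold change and 1 CPM; for the baseline up to 8 called members each way, and for each list the genes ranking first by adjusted p in H1944, at most 6 and with at least 1 CPM. Counting intervals are exact at 95% and, like floors of 3 counts, cover counting error only. Gene positions and exon lengths are from the GENCODE annotation of GRCh38 and promoters from RefSeq on GRCh38.p14; members that the promoter table does not hold were left out of the motif counts.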

Additional observations from a re-analysis of the deposited data

Results flagged for a closer look

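For 9 receptors the knockout change differed between the lines by a test of the difference itself, given here as the log2 change in A549 minus that in H1944 (edgeR's quasi-likelihood test, adjusted p over all genes tested). The change was higher in A549 for ERBB4 (7.07, adjusted p = 0.0272), EPHA1 (5.49, 0.0446), ERBB3 (4.585, 0.000704), LMTK2 (3.653, 0.00985), STYK1 (3.634, 0.00328), FGFR3 (1.518, 0.034) and INSR (1.234, 0.0397). It was lower in A549 for ROR2 (-5.425, 0.0409) and EPHA2 (-1.809, 0.00795). ERBB3 and STYK1 kept an adjusted p under 0.05 under every alternative run for this comparison. LMTK2 lost it without H1944 KO 1 (0.0742) or KO 2 (0.0555), and EPHA2 without H1944 WT 1 (0.0504), WT 2 (0.0613) or KO 1 (0.05 after rounding). The calls of ERBB4, EPHA1, FGFR3, ROR2 and INSR were lost in 7 to 10 of the alternatives each, that of ROR2 on leaving out any library except A549 WT 2 and in the larger A549 set alone (0.0822). The values of ERBB4, EPHA1 and ROR2 rest on A549 libraries with a handful of reads each. ERBB4 and EPHA1 also passed the H1944 filter through WT only, so their entry in the test was tied to their difference.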

How the results depend on the processing

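No called change turned its direction under an alternative. In H1944, 1 fit of all 10 libraries gave 4 members higher and 11 lower (1177 and 1345 of all genes, against 5522 and 5642), and leaving out a library gave 8 to 9 higher and 20 to 23 lower. In A549, DESeq2 and 1 fit of all 10 libraries each gave 1 higher (STYK1) and 1 lower (NTRK3). Of all genes, DESeq2 gave 81 higher and 44 lower, and the fit of all 10 libraries gave 10 and 6. A library set term gave 1 lower (NTRK3), and leaving out a library gave 0 and 0. Of 390 member values that passed neither in the reported fit nor in the alternative, 43 changed sign. For the difference between lines, DESeq2 and a library set term each gave 4 lower, the larger A549 set alone gave 11 higher, and leaving out a library gave 2 to 9 higher and 0 to 2 lower. Between the WT lines, the larger A549 set alone, which is the same fit as leaving out A549 WT 1, gave 21 lower. Leaving out a library gave 4 to 16 higher and 5 to 21 lower. The set term and the larger set for the difference between lines were chosen after seeing the data. With the replicate block H1944 gave 9 higher and 21 lower, as without it, and it changed no other call of a member. No paired analysis was possible in A549 because the KO columns carry no number shared with WT, nor for the comparisons between lines. The cause of these shifts was not tested. Members under about 1 CPM had few reads, and a missing call there was not detectable at this depth.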
